A study of Mus musculus with 9 samples.

Results

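The 36 genes described here mark endothelial cells, the cells that line blood and lymph vessels. They cover the junction and surface proteins of these cells, their growth factor receptors, their transcription factors, their G protein-coupled receptors and their secreted or functional products. Each gene was represented by 1 probe: among the probes that carried its symbol or a synonym, and whose Cy5 signal cleared the background by the scanner's mark on 3 or more of the 9 arrays, the one with the highest mean signal over both dyes. By this rule 35 of the 36 genes were measured, out of 16871 genes named on the array. Flt4, the receptor of the lymphatic growth factors Vegfc and Vegfd, was above background on 2 arrays and has no value here. Of the 35 genes, 34 had a tumour signal marked well above background on all 9 arrays, and Tek on 5. The selection used the same mark, and its share over all probes kept was not computed. It also covers signals near the negative controls, such as Pecam1 at 77 to 89 scanner units, Tie1 at 77 to 88 and Sox17 at 79 to 100.

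The tumours grew from variants of B16-F10, a mouse melanoma line, that differ in L-histidine decarboxylase (HDC), the only enzyme that produces histamine. HDC-S cells make and secrete more histamine, HDC-A cells make less, and HDC-M cells are the unmodified comparison. Each group is 1 line variant, so the variant and its histamine output cannot be told apart, and host strain, sex and age are not given in the sources used here. Each group had 6 tumours whose RNA was combined into 3 pools of 2 tumours each. A pool was labelled with Cy5 and hybridised together with Cy3-labelled RNA from HDC-M cells grown in culture, which served as the common reference of all 9 arrays. All values are given as the log2 of tumour pool over culture, so that 1 unit is a 2-fold change.

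Solid tumours depend on vessels of the host for blood supply. Endothelial cells are held together by VE-cadherin (Cdh5) and claudin 5 (Cldn5), they receive growth signals through the VEGF receptors Kdr and Flt1 and through the angiopoietin receptor Tek, and their identity is set by Ets and Sox family transcription factors. Histamine is known as a mediator that acts on this cell layer and makes small vessels leak. A culture of melanoma cells holds no vessels, which makes it a background for genes of the vessel wall. In a bulk tumour sample, a lower value can come from fewer endothelial cells or from less RNA of the gene per cell, and these cannot be told apart.

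The Cy5 signal was well above background at 58% to 69.7% of the probe spots, with the highest share in HDC-M replicate 3. Hdc itself has 1 probe, whose culture signal did not exceed the negative controls on any array. Its log2 ratio was 0.44, 0.33 and 0.61 in HDC-S, 0.15, 0.15 and 0.42 in HDC-A, and 0.60, 0.48 and 0.06 in HDC-M tumours, and it did not pass in HDC-S against HDC-M (0.08, adjusted p = 0.864), in HDC-A against HDC-M (-0.14, adjusted p = 0.696) or in HDC-S against HDC-A (0.22, adjusted p = 0.463, limma). Replicates 1 and 2 of every group were scanned on one day and replicate 3 of every group on another. Of 7 melanocyte genes 5 were measured, with medians against the culture of 0.02 in HDC-S, 0.26 in HDC-A and 0.15 in HDC-M tumours. In HDC-S tumours 2 of these 5 were higher and 2 lower than the culture (limma, adjusted p under 0.05). In HDC-A 3 were higher and 1 lower, and in HDC-M 3 were higher and 0 lower. Of all probes kept, 38.2%, 38.9% and 34% were higher in HDC-S, HDC-A and HDC-M tumours, and 26%, 26.8% and 23.9% were lower.

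Upstream sequences are shown for 4 of the genes to give the context of the values below. Cd34, Esm1 and Emcn are among the genes whose mean log2 ratio was over 2 in every group, each with a single promoter in the table used, and Mcam is the gene that later differed between tumour groups, so the 4 were chosen after values were seen. The sequences are from RefSeq, build GRCm38.p6, and hold the 250 bases before the start of the gene, on the plus strand in each case. They lie at chr1:194938571-194938820 for Cd34, at chr13:113209409-113209658 for Esm1, at chr3:137340828-137341077 for Emcn and at chr9:44134408-44134657 for Mcam. Capitals mark the letters AGGAAG or CGGAAG on either strand, a core that Ets family factors such as Erg and Ets1 bind.
Cd34: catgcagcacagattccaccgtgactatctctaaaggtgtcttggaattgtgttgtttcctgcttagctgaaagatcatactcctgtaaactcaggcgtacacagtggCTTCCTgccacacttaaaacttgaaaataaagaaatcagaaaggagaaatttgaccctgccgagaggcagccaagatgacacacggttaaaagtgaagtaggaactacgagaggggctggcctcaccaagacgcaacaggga
Esm1: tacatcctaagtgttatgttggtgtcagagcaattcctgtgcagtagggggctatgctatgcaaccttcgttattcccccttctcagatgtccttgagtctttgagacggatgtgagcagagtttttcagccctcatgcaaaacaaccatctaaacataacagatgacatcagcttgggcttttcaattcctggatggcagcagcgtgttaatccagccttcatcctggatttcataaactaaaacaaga
Emcn: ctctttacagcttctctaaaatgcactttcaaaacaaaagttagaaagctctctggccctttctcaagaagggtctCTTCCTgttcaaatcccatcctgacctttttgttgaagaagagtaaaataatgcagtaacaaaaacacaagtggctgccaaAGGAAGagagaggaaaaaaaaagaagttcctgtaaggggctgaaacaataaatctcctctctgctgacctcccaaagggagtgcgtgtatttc
Mcam: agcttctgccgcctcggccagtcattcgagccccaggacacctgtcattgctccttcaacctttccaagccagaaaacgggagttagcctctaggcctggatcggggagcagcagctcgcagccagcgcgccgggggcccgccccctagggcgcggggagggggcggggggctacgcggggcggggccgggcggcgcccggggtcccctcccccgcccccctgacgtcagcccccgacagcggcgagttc

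The Cd34 sequence holds 1 such match, whose first base lies 142 bases before the start. The Emcn sequence holds 2, at 174 and 93 bases before the start, and the Esm1 and Mcam sequences hold 0. The Mcam sequence is rich in G and C (73.6% of its bases), against 46.4% for Cd34 and 40.8% for Emcn. The table held 22 promoters for 17 of the 36 genes, and 11 of these 22 carried a match, against 39.2% of the 32851 promoters of all genes. Letters of a Sox factor core (ACAATG or ACAAAG, either strand) were in 27.3% of the 22, against 25.2% of all, and letters of a GATA factor core (AGATAA or TGATAA, either strand) in 13.6%, against 16.6% of all. The 3 sets share no word with each other, although matches of different sets may share bases, and a match describes letters only.

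The first question was how the endothelial genes in tumours compare with the culture. In HDC-S tumours 30 of the 35 measured genes were higher and 1 was lower (limma, adjusted p under 0.05 over all probes kept), while 38.2% of all probes kept were higher and 26% lower. In HDC-A tumours 32 were higher and 1 lower, against 38.9% and 26.8% of all probes, and in HDC-M tumours 30 were higher and 1 lower, against 34% and 23.9%. The median of the 35 genes was 0.80 in HDC-S, 1.03 in HDC-A and 0.86 in HDC-M tumours, and the median of all probes kept was 0.063, 0.063 and 0.054 in the same groups. A log2 ratio over 1 was reached by 16, 18 and 15 of the genes in HDC-S, HDC-A and HDC-M tumours, against 4.24%, 4.65% and 3.89% of all probes. There were 28 genes that passed as higher in all 3 groups. The share of all probes that did so was not computed, and the 3 groups share the culture reference. The filter on the tumour signal was the same for all probes, and it favours probes that are bright in tumours.

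The test leaves out the spread of the culture, which is 1 sample, and with no dye swap any dye bias stays in these ratios. For HDC-S and HDC-A tumours the variant and growth as a tumour cannot be told apart. The size of the ratios depends on the processing: ratios as computed by the scanner software, with its own background correction and dye normalization, and repeated in the deposited value table, gave medians of 1.77, 1.95 and 2.01 in HDC-S, HDC-A and HDC-M tumours, and median centring gave 1.00, 1.36 and 1.40. For 10 of the genes (Pecam1, Cdh5, Emcn, Kdr, Tek, Ptprb, Sox18, Erg, Vwf and Esm1) the culture signal lay within the range of the negative controls (95th percentile 149 to 163 scanner units) on all 9 arrays. For these a fold over the culture is given below as a lower bound, beside the log2 ratios as measured. The dim side is set no lower than that percentile, and the fold is not ranked. The bound rests on group means without their spread. No fold is given for Pecam1 and Tek, which were dim in both dyes. For 15 genes the culture signal was above the negative controls on all 9 arrays and for 10 on 1 to 8 arrays.

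**Figure D1:**
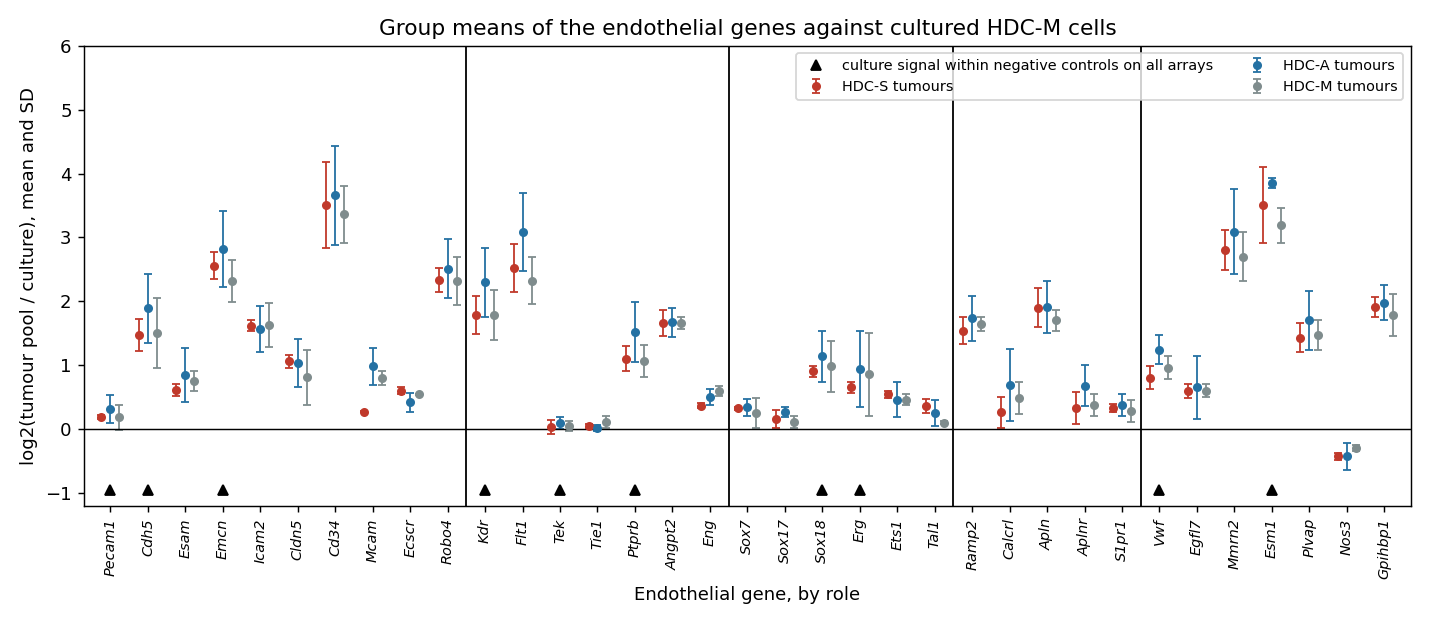
Group means of the log2 ratio of tumour pool over culture for the 35 measured genes, with bars for the SD over 3 pools (2 for Ecscr in HDC-S and HDC-M and for Flt1 in HDC-M), ordered by role and with HDC-S, HDC-A and HDC-M from left to right within a gene. Triangles mark the 10 genes whose culture signal stayed within the negative controls on all arrays, and Nos3 is the gene whose 3 means lie below 0.

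Among the 10 junction and surface proteins, 9 were higher than the culture in HDC-S, 10 in HDC-A and 9 in HDC-M tumours, with medians of 1.27, 1.29 and 1.15. VE-cadherin (Cdh5), the adhesion protein of the endothelial junction, had log2 ratios of 1.27, 1.39 and 1.76 in HDC-S, 1.57, 2.52 and 1.59 in HDC-A, and 1.43, 2.08 and 0.98 in HDC-M tumours. It exceeded the culture at least 2.78-fold in HDC-S, 3.54-fold in HDC-A and 2.61-fold in HDC-M tumours, and it passed in each (adjusted p = 0.000277, 5.22e-05 and 0.000296). The 3 groups overlapped, and the dimmer second probe of Cdh5 gave 0.22, 0.21 and 0.07 in these groups, passing in HDC-S and HDC-A only. Endomucin (Emcn), a sialomucin of capillary and venous endothelium, had ratios of 2.52, 2.78 and 2.37 in HDC-S, 2.54, 3.51 and 2.41 in HDC-A, and 2.52, 2.50 and 1.94 in HDC-M tumours. That is at least 5.89-fold, 7.06-fold and 5.0-fold the culture in HDC-S, HDC-A and HDC-M tumours. All groups lay well above 0 and overlapped one another.

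Cd34, a sialomucin shared by endothelium and blood progenitors, had ratios of 3.21, 4.27 and 3.04 in HDC-S, 3.17, 4.57 and 3.25 in HDC-A, and 3.66, 3.58 and 2.85 in HDC-M tumours. The highest value of each of the HDC-S and HDC-A groups was its replicate 2. Robo4, a guidance receptor found on endothelium, had 2.50, 2.35 and 2.13 in HDC-S, 2.40, 3.01 and 2.12 in HDC-A, and 2.40, 2.65 and 1.90 in HDC-M tumours. Its culture signal exceeded the negative controls on all 9 arrays, and of the 15 genes for which that holds its ratio was the largest in every group. Icam2, an adhesion molecule for leukocytes, averaged 1.62 ± 0.08 in HDC-S, 1.56 ± 0.36 in HDC-A and 1.63 ± 0.34 in HDC-M tumours (SD, n = 3 each), a 2.95-fold to 3.1-fold excess. Claudin 5 (Cldn5) averaged 1.06 ± 0.10 in HDC-S, 1.03 ± 0.38 in HDC-A and 0.81 ± 0.43 in HDC-M tumours (SD, n = 3 each).

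Esam, a tight junction adhesion molecule, averaged 0.61 ± 0.10 in HDC-S, 0.84 ± 0.42 in HDC-A and 0.75 ± 0.16 in HDC-M tumours (SD, n = 3 each). Ecscr, a surface protein of endothelial cells, had 0.64 and 0.56 in HDC-S (2 usable arrays), 0.37, 0.59 and 0.31 in HDC-A, and 0.54 and 0.53 in HDC-M tumours (2 usable arrays). Both passed as higher than the culture in all groups. Pecam1, the CD31 antigen by which vessels are usually counted in tissue sections, stayed close to 0. Both of its dyes were near the floor, so no fold is given. Pecam1 had 0.20, 0.21 and 0.15 in HDC-S, 0.22, 0.57 and 0.15 in HDC-A, and 0.14, 0.39 and 0.02 in HDC-M tumours. It passed in HDC-A (adjusted p = 0.00924) but not in HDC-S (adjusted p = 0.0801) or HDC-M tumours (adjusted p = 0.0984, limma). Compared directly by limma, Pecam1 did not differ in HDC-S against HDC-M (0.01, adjusted p = 0.987) or HDC-A against HDC-M (0.13, 0.664). Nor did it in HDC-S against HDC-A tumours (-0.13, adjusted p = 0.659, limma). The only Pecam1 probe was dim in both dyes, with a tumour signal of 77 to 89 scanner units against a 95th percentile of 68 to 73 units in the negative controls. Pecam1 passed in HDC-S and HDC-M tumours with the scanner software's ratios (0.76 and 0.67, adjusted p = 0.0096 and 0.0169), and without HDC-A replicate 2 it did not pass in HDC-A tumours (0.19, adjusted p = 0.0717).

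Of the receptor kinases with their ligand, phosphatase and co-receptor, 7 of 8 were measured; 5 were higher than the culture in HDC-S, 5 in HDC-A and 6 in HDC-M tumours. Kdr, the main VEGF receptor of blood vessels, had ratios of 1.64, 2.13 and 1.59 in HDC-S, 2.15, 2.90 and 1.85 in HDC-A, and 1.97, 2.03 and 1.34 in HDC-M tumours, or at least 3.31-fold, 4.79-fold and 3.41-fold the culture. Flt1, the VEGF receptor that also acts as a decoy, had 2.10, 2.78 and 2.68 in HDC-S, 2.83, 3.78 and 2.63 in HDC-A, and 2.58 and 2.06 in HDC-M tumours, where 1 array was not usable. Its second probe also passed in all groups, with smaller ratios of 1.39, 1.47 and 1.13. Ptprb, the phosphatase that acts on Tek and Cdh5, had at least 2.14-fold, 2.86-fold and 2.1-fold the culture's signal in HDC-S, HDC-A and HDC-M tumours.

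Angpt2, the ligand that endothelial cells release to loosen contact with pericytes, averaged 1.66 ± 0.20 in HDC-S, 1.67 ± 0.23 in HDC-A and 1.66 ± 0.10 in HDC-M tumours (SD, n = 3 each), a 3.15-fold to 3.19-fold excess. The 3 group means thus lay within 0.02 of each other. The receptor of this ligand, Tek, and its partner Tie1 were at the limit of detection. Tek ranged from -0.09 to 0.19 over the 9 arrays and passed in no group, with no fold given because both dyes were near the floor, and Tie1, its partner receptor, ranged from -0.01 to 0.18 and passed in HDC-M tumours only (0.11, adjusted p = 0.0467). Their culture signals were within the negative controls on all 9 arrays for Tek and on 8 for Tie1, and for both genes the sign of the ratio turned in some settings. Endoglin (Eng), the co-receptor for TGF-beta family ligands, averaged 0.36 ± 0.04 in HDC-S, 0.50 ± 0.12 in HDC-A and 0.60 ± 0.08 in HDC-M tumours (SD, n = 3 each), and its culture signal was 510 to 627 scanner units, well above the negative controls.

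The 6 transcription factors had medians of 0.45, 0.40 and 0.36 in HDC-S, HDC-A and HDC-M tumours. All 6 were higher than the culture in HDC-S and HDC-A tumours and 4 in HDC-M tumours. Sox18, a regulator of vessel development, had 0.82, 1.00 and 0.88 in HDC-S, 0.86, 1.60 and 0.97 in HDC-A, and 1.32, 1.08 and 0.54 in HDC-M tumours, or at least 1.84-fold, 2.15-fold and 1.97-fold the culture. Erg, the Ets factor that maintains endothelial identity, had 0.72, 0.69 and 0.55 in HDC-S, 0.71, 1.62 and 0.49 in HDC-A, and 0.62, 1.60 and 0.36 in HDC-M tumours, so that replicate 2 stood above the others in both of the groups HDC-A and HDC-M. Over the 9 arrays the Erg signal spanned 116 to 130 scanner units in the tumours and 105 to 156 in the culture. The spread of its ratios thus holds that of a culture signal within the negative controls. The excess of Erg over the culture was at least 1.57-fold in HDC-S, 1.57-fold in HDC-A and 1.51-fold in HDC-M tumours. Ets1 averaged 0.54 ± 0.06 in HDC-S, 0.46 ± 0.27 in HDC-A and 0.46 ± 0.08 in HDC-M tumours (SD, n = 3 each). Sox7 averaged 0.32 ± 0.02, 0.34 ± 0.13 and 0.25 ± 0.24 in HDC-S, HDC-A and HDC-M tumours (SD, n = 3 each).

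Sox17, an arterial Sox factor, averaged 0.16 ± 0.14 in HDC-S, 0.26 ± 0.08 in HDC-A and 0.11 ± 0.10 in HDC-M tumours (SD, n = 3 each), and the last did not pass (adjusted p = 0.136, limma). Its second probe gave larger ratios of 0.87, 0.86 and 0.55, which passed in each group. Tal1, a factor of blood and endothelial precursors, averaged 0.36 ± 0.11 in HDC-S, 0.25 ± 0.21 in HDC-A and 0.10 ± 0.03 in HDC-M tumours (SD, n = 3 each), and did not pass in HDC-M (adjusted p = 0.279, limma).

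The 5 G protein-coupled receptors and partners had medians of 0.33, 0.69 and 0.48 in HDC-S, HDC-A and HDC-M tumours. Apln, the peptide ligand made by sprouting tip cells, averaged 1.90 ± 0.30 in HDC-S, 1.91 ± 0.40 in HDC-A and 1.70 ± 0.17 in HDC-M tumours (SD, n = 3 each). A second probe of Apln gave 2.02, 2.03 and 1.50, while a further probe, above background on 4 arrays, gave values near 0 and passed in no group. Its receptor Aplnr had smaller ratios of 0.20, 0.62 and 0.16 in HDC-S, 0.61, 1.03 and 0.40 in HDC-A, and 0.39, 0.55 and 0.20 in HDC-M tumours. A dimmer second Aplnr probe gave 0.09, 0.12 and 0.04 in these groups. Ramp2, which turns the receptor Calcrl into an adrenomedullin receptor, averaged 1.54 ± 0.21 in HDC-S, 1.73 ± 0.35 in HDC-A and 1.64 ± 0.11 in HDC-M tumours (SD, n = 3 each). Calcrl itself had 0.12, 0.53 and 0.11 in HDC-S, 0.39, 1.34 and 0.35 in HDC-A, and 0.44, 0.74 and 0.25 in HDC-M tumours, and did not pass in HDC-S (adjusted p = 0.234, limma). S1pr1, the sphingosine 1-phosphate receptor that tightens junctions, averaged 0.33 ± 0.06, 0.37 ± 0.17 and 0.28 ± 0.17 in HDC-S, HDC-A and HDC-M tumours (SD, n = 3 each).

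Of the 7 secreted and functional products, 6 were higher and 1 was lower than the culture in each group, with medians of 1.43, 1.70 and 1.47. Esm1, a proteoglycan made by endothelium under VEGF signalling, had ratios of 4.12, 3.46 and 2.95 in HDC-S, 3.94, 3.79 and 3.81 in HDC-A, and 3.01, 3.50 and 3.06 in HDC-M tumours. It exceeded the culture at least 11.3-fold in HDC-S, 13.8-fold in HDC-A and 9.12-fold in HDC-M tumours. Mmrn2, a matrix protein that binds VEGF, had 2.69, 3.15 and 2.56 in HDC-S, 2.70, 3.87 and 2.71 in HDC-A, and 2.96, 2.89 and 2.25 in HDC-M tumours. Von Willebrand factor (Vwf), which tethers platelets, had 0.63, 0.80 and 0.98 in HDC-S, 1.06, 1.17 and 1.50 in HDC-A, and 0.84, 1.17 and 0.88 in HDC-M tumours, or at least 1.65-fold, 2.32-fold and 1.95-fold the culture.

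Plvap, which forms the diaphragms of fenestrated and leaky capillaries, averaged 1.43 ± 0.23 in HDC-S, 1.70 ± 0.46 in HDC-A and 1.47 ± 0.23 in HDC-M tumours (SD, n = 3 each). Gpihbp1, which carries lipoprotein lipase across capillaries, averaged 1.91 ± 0.15 in HDC-S, 1.98 ± 0.28 in HDC-A and 1.78 ± 0.33 in HDC-M tumours (SD, n = 3 each). Egfl7, a matrix protein that guides vessel sprouts, averaged 0.59 ± 0.11 in HDC-S, 0.65 ± 0.49 in HDC-A and 0.60 ± 0.10 in HDC-M tumours (SD, n = 3 each). Nos3, the nitric oxide synthase of endothelium, was the exception in sign: it had -0.44, -0.37 and -0.49 in HDC-S, -0.54, -0.18 and -0.56 in HDC-A, and -0.34, -0.32 and -0.24 in HDC-M tumours. It was lower than the culture on all 9 arrays and passed in each group (adjusted p = 0.000444, 0.000479 and 0.00476), but not in any group under median centring. Its culture signal was 209 to 222 scanner units, above the negative controls on all 9 arrays.

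**Figure D2:**
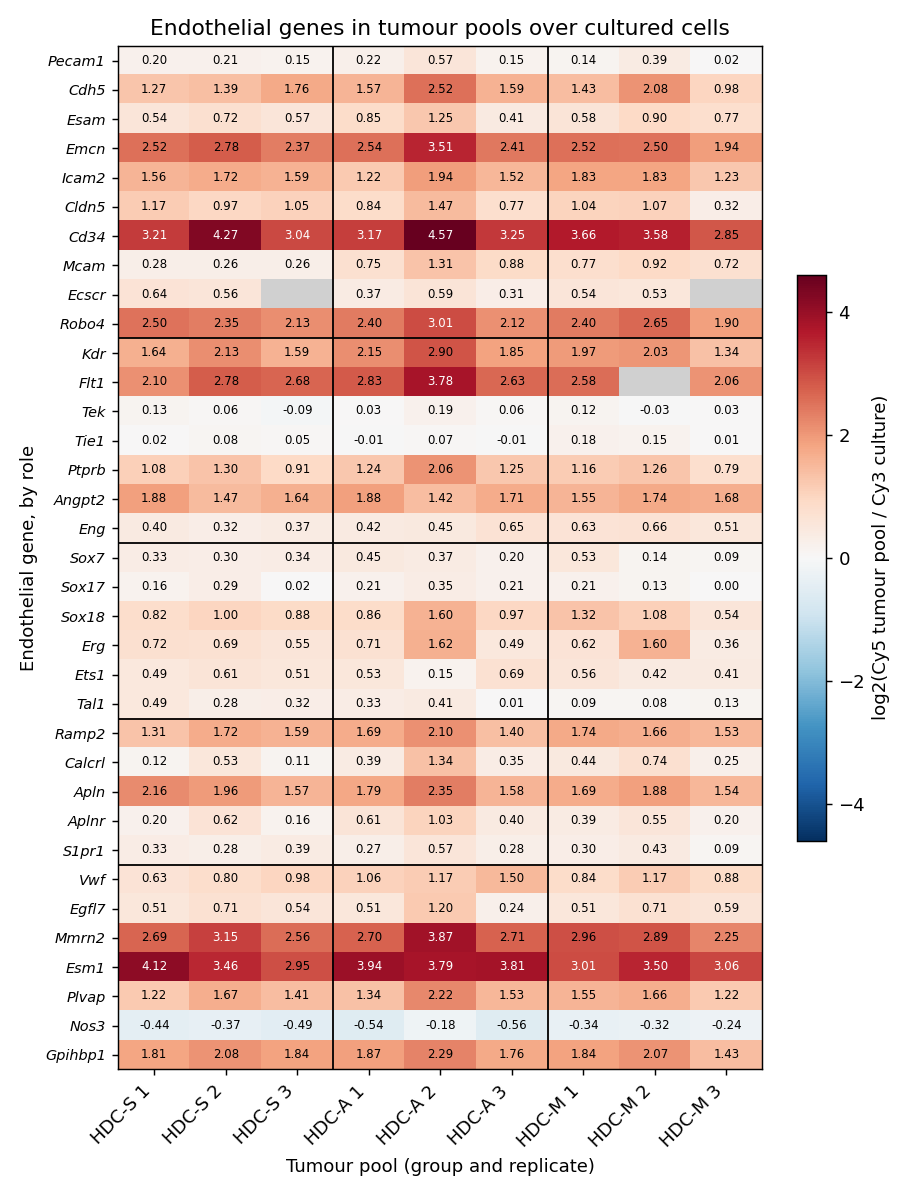
Log2 ratio of tumour pool over culture of each measured gene (rows, grouped by role) in each of the 9 tumour pools (columns), with grey for values that were not usable. HDC-A replicate 2 holds the highest value of 26 of the 35 genes and HDC-M replicate 3 the lowest of 17.

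Several of the genes gave a clear signal in the cultured melanoma cells as well. The culture signal was 939 to 1246 scanner units for Mcam, 499 to 633 for Egfl7, 388 to 482 for Angpt2, 293 to 359 for Ramp2 and 261 to 382 for Ecscr. The 15 genes with a culture signal above the negative controls on all 9 arrays had medians of 0.60, 0.98 and 0.80 in HDC-S, HDC-A and HDC-M tumours. The 10 genes whose culture signal stayed within the negative controls had medians of 1.00, 1.38 and 1.03, which count their ratios as measured and not as bounds.

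The second question was whether the endothelial genes differ between tumours of the 3 line variants, in which histamine itself was not measured here. By limma's F-test over the 3 groups, 1 of the 35 genes passed, Mcam (adjusted p = 0.0295), where 4.65% of all probes passed. The pairwise comparisons share arrays: HDC-S against HDC-M and HDC-A against HDC-M share the HDC-M pools, and each shares a group with HDC-S against HDC-A.

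In HDC-S against HDC-M tumours 0 of the 35 genes passed, where 0.681% of all probes did. At an unadjusted p under 0.05 there were 3, against 14.5% of all probes. The median difference was 0.01, and 19 of the 35 differences were above 0, against 53.2% of all probes. The differences ran from -0.54 at Mcam to 0.32 at Esm1. The 95% intervals of 34 genes lay within 1 log2 unit of 0, while 28 did in HDC-A against HDC-M and 27 in HDC-S against HDC-A tumours. The intervals hold for the ratios as processed here, whose size depends on the processing. For Pecam1, Tek, Tie1 and Sox17, with tumour signals of 64 to 100 scanner units near those of the negative controls, a narrow interval sets no limit on the change. Sox7 and S1pr1, at 86 to 121 and 92 to 111 scanner units, were little brighter. For Cdh5 the interval ran from -0.72 to 0.67 and for Kdr from -0.62 to 0.64.

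The 3 genes under the unadjusted threshold were Mcam, Eng and Tal1. Eng averaged 0.36 in HDC-S and 0.60 in HDC-M tumours, a difference of -0.24 (adjusted p = 0.182, limma), with every HDC-S pool below every HDC-M pool. Tal1 averaged 0.36 in HDC-S and 0.10 in HDC-M tumours, a difference of 0.27 (adjusted p = 0.276, limma), with every HDC-S pool above every HDC-M pool. The groups did not overlap at 4 of the 33 genes measured on all arrays of both groups, namely Mcam, Eng and Nos3 (lower in HDC-S) and Tal1 (higher in HDC-S), against 21.6% of all probes.

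In HDC-A against HDC-M tumours 0 of the 35 genes passed, where 1.44% of all probes did, and 1 had an unadjusted p under 0.05, against 15.5% of all probes. The median difference was 0.16, and 29 of the 35 differences were above 0, against 51.9% of all probes. The gene under the unadjusted threshold was Esm1, with a mean of 3.85 in HDC-A and 3.19 in HDC-M tumours, a difference of 0.66 (95% interval 0.10 to 1.22, adjusted p = 0.237, limma) and no overlap. That difference was -0.01 in the deposited value table as in the scanner's own ratios, and arrays scaled to a common spread gave -0.43. Flt1 differed by 0.76 (adjusted p = 0.34, limma), with 2 usable HDC-M arrays, and by -0.93 in the deposited value table. The groups did not overlap at 2 of 33 genes, Esm1 and Sox17, both higher in HDC-A, against 20.1% of all probes. For Sox17 the lowest HDC-A and the highest HDC-M value were both 0.21 after rounding. Its tumour signal was 79 to 100 scanner units, near the negative controls.

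In HDC-S against HDC-A tumours 1 of the 35 genes passed, lower in HDC-S, where 5.26% of all probes passed and 2.42% were lower. At an unadjusted p under 0.05 there were 2, against 19.4% of all probes. The median difference was -0.16, and 6 of the 35 differences were above 0, against 51.4% of all probes. Besides Mcam, Vwf was under the unadjusted threshold, with a mean of 0.80 in HDC-S and 1.24 in HDC-A tumours and a difference of -0.44 (adjusted p = 0.105, limma). The groups did not overlap at 3 of 34 genes, Mcam, Eng and Vwf, each lower in HDC-S, against 23.8% of all probes. Deviations of same-numbered pools of these 2 groups stood out for replicate 2 only (correlation 0.548, against 0.11 and 0.134). Differently numbered pools reached 0.217, so whether the numbers pair pools is not settled. With the replicate number as a block 2 of the 35 genes passed, Mcam (-0.72, adjusted p = 0.0195) and Aplnr (-0.35, adjusted p = 0.0496, limma), while 1123 of 26869 probes passed.

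Mcam encodes the adhesion molecule MCAM (CD146), a protein of endothelial junctions and pericytes that is also made by melanoma cells. Its log2 ratio was 0.28, 0.26 and 0.26 in HDC-S, 0.75, 1.31 and 0.88 in HDC-A, and 0.77, 0.92 and 0.72 in HDC-M tumours. Every HDC-S pool lay below every pool of the other groups, and the 3 HDC-S pools lay within 0.02 of each other. Mcam fell in HDC-S against HDC-A tumours by a log2 fold of -0.72 (SE 0.13, half-width of the 95% interval 0.28, adjusted p = 0.0151, limma). Against HDC-M tumours its difference was -0.54 (95% interval -0.82 to -0.25, adjusted p = 0.1), and HDC-A exceeded HDC-M by 0.18 (adjusted p = 0.561). The last of these had the opposite sign under median centring (-0.24) and after scaling (-0.09).

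The Mcam difference between HDC-S and HDC-A was -0.76 on the first scan day and -0.62 on the second, which has 1 array per group and no test. It was between -0.83 and -0.55 in 23 alternative fits and passed in 15 of them. It did not pass in the deposited value table (adjusted p = 0.0574), with the scanner's own ratios (0.058), with arrays scaled to a common spread (0.12), under median centring (0.934), on the first scan day alone (0.146) or without HDC-S replicate 1, 2 or 3 (0.0501, 0.0524 and 0.0589). Against HDC-M tumours Mcam passed with array weights (adjusted p = 0.0314) and without HDC-A replicate 2 (0.0268). The second Mcam probe, dimmer by its mean log2 intensity (6.76, against 10.38), differed in the same direction by -0.13 between HDC-S and HDC-A (adjusted p = 0.221, limma). In HDC-S against HDC-M tumours that probe differed by 0.01 (adjusted p = 0.942, limma), against -0.54 for the brighter probe. The Mcam signal of 939 to 1246 scanner units in the culture, against 149 to 163 in the negative controls, came from melanoma cells grown without vessels, and the part of each cell type in the tumour difference was not tested.

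**Figure D3:**
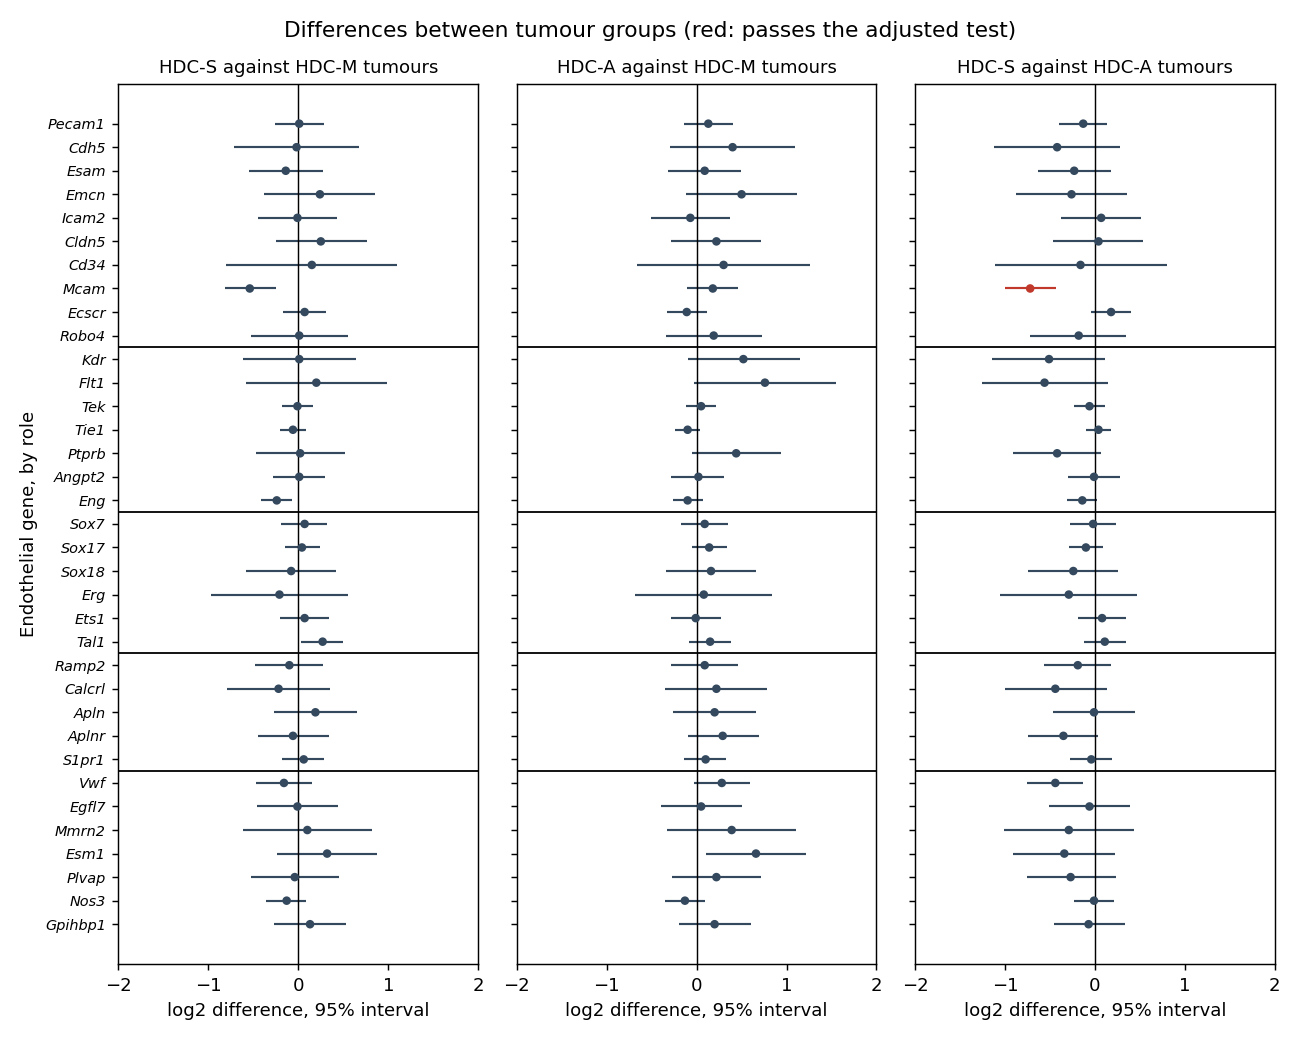
Differences in log2 ratio between tumour groups for the 35 measured genes, as points with 95% intervals from limma, in 3 panels (HDC-S against HDC-M, HDC-A against HDC-M, HDC-S against HDC-A). Mcam in HDC-S against HDC-A (-0.72, in red) is the gene that passes, and most points of the second panel lie right of 0 and of the third panel left of 0.

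Single pools held much of these differences. HDC-A replicate 2 had the highest value of the 9 arrays at 26 of the 35 genes, and at 14 of the 16 genes with a mean log2 ratio over 1. Over all probes with 9 values it was highest at 14.9%, and at 36.7% of the 1019 probes with a mean ratio over 1. It lay above the mean of the other arrays at 32 genes, by 1.25 at Flt1, 1.19 at Cd34, 1.13 at Mmrn2, 1.06 at Kdr and 0.97 at Calcrl. The exceptions were Angpt2 and Ets1, at which it was the lowest array (1.42 and 0.15), and Eng, at which it lay 0.05 log2 units below (-0.05). HDC-M replicate 3 had the lowest value at 17 genes, 11 of them among the 16 with a mean over 1, where over all probes it was lowest at 15.6% and at 34.7% of those with a mean over 1.

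Without HDC-A replicate 2 the median difference of the 35 genes was 0.00 in HDC-A against HDC-M tumours and -0.01 in HDC-S against HDC-A tumours. Without HDC-M replicate 3 it was 0.05 in HDC-A against HDC-M and -0.11 in HDC-S against HDC-M tumours. Median centring gave -0.04 and scaling -0.10 in HDC-A against HDC-M tumours, so the sign of that median depends on the normalization. On the first scan day the median was 0.18 in HDC-A against HDC-M, -0.19 in HDC-S against HDC-A and -0.06 in HDC-S against HDC-M tumours. On the second day it was 0.20, -0.02 and 0.12 in the same comparisons, over the 34 genes measured there.

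Some gene lists of other cell types were also highest in HDC-A replicate 2, and others were not. In HDC-A replicate 2 the median of the 35 genes was 1.42, against 0.72 to 1.08 on the other arrays. The median of 8 fibroblast genes was 4.58 there, against 2.32 to 3.88 on the others, that of 11 pericyte and smooth muscle genes 1.03, against 0.27 to 0.71, that of 10 macrophage genes 2.13, against 0.77 to 2.06, and that of 6 skeletal muscle genes 3.67, against 0.67 to 2.97. The median of 5 adipocyte genes in HDC-A replicate 2 was 0.88, against 0.16 to 0.86 on the others. The keratinocyte median was highest in HDC-M replicate 1 (3.96, against 3.14 in HDC-A replicate 2), the T and NK cell and erythroid medians in HDC-M replicate 2 (0.33 and 0.62, against 0.24 and 0.26), and the platelet median in HDC-S replicate 1 (0.40, against 0.21). At the low end, the macrophage (0.77), T and NK cell (0.05), platelet (0.07) and adipocyte (0.16) medians were lowest in HDC-M replicate 3. So were those of the further endothelial (0.22) and angiogenic (0.25) lists described below. The fibroblast (2.32), pericyte (0.27) and skeletal muscle (0.67) medians were lowest in HDC-S replicate 3, where the median of the 35 endothelial genes was 0.89 and not the lowest. That median was lowest in HDC-S replicate 1 (0.72, against 0.75 in HDC-M replicate 3). The keratinocyte (-0.02) and melanocyte (-0.17) medians were also lowest in HDC-S replicate 1, and the erythroid median (0.04) in HDC-A replicate 3. The part of these other cell types in the values of the endothelial genes was not tested.

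**Figure D4:**
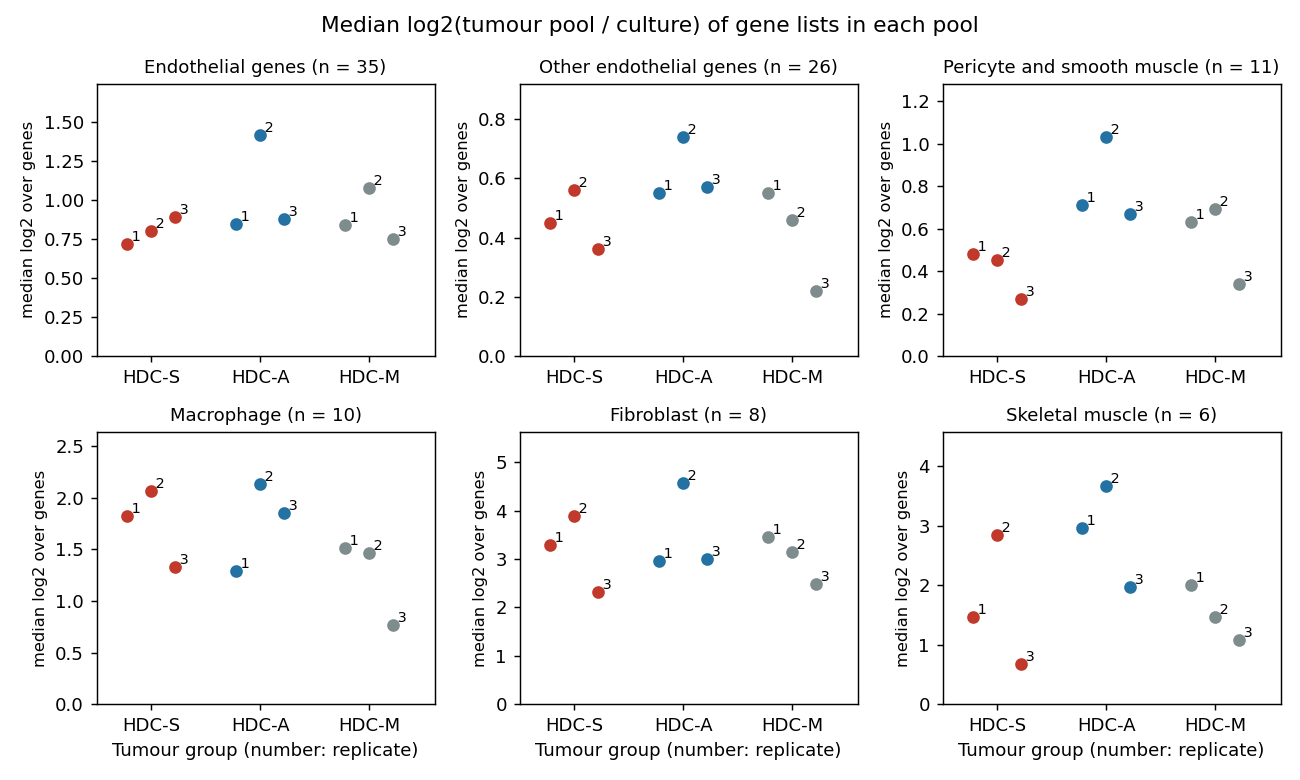
Median log2 ratio of tumour pool over culture for 6 gene lists in each of the 9 pools, with groups from left to right as HDC-S, HDC-A and HDC-M and the replicate number beside each point. HDC-A replicate 2 has the highest median in all 6 panels, 1.42 for the 35 endothelial genes and 4.58 for the fibroblast genes. Of the lists not shown, the adipocyte median was also highest there. The keratinocyte, T and NK cell, erythroid, platelet, melanocyte and angiogenic medians were highest in other pools.

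A further list of 32 endothelial genes, with 26 measured, was set beside the 35. Of these 26, 19 were higher than the culture in HDC-S, 21 in HDC-A and 19 in HDC-M tumours, against 38.2%, 38.9% and 34% of all probes, with medians of 0.53, 0.62 and 0.42. Between tumour groups 0 passed in HDC-S against HDC-M (median difference 0.05), 0 in HDC-A against HDC-M (0.11) and 1 in HDC-S against HDC-A (-0.10), where 0.681%, 1.44% and 5.26% of all probes passed. That gene was Elk3, an Ets family factor of vessels and mesenchyme, with 1.63, 1.34 and 1.55 in HDC-S, 2.11, 2.03 and 1.92 in HDC-A, and 1.78, 1.86 and 1.50 in HDC-M tumours. It fell in HDC-S against HDC-A tumours by a log2 fold of -0.51 (SE 0.11, adjusted p = 0.0294, limma), with no overlap of these groups. It passed in 12 of 23 alternative fits and did not pass when any 1 of the 6 HDC-S and HDC-A pools was left out (-0.58 to -0.43, adjusted p = 0.0501 to 0.0935), and its second probe gave -0.45 (adjusted p = 0.0716, limma).

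Of 30 angiogenic and Notch signals 27 were measured, and 20, 23 and 17 were higher than the culture in HDC-S, HDC-A and HDC-M tumours, against 38.2%, 38.9% and 34% of all probes. Between tumour groups 0 passed by limma in each of the 3 comparisons. Of all probes 0.681% passed in HDC-S against HDC-M, 1.44% in HDC-A against HDC-M and 5.26% in HDC-S against HDC-A tumours. At an unadjusted p under 0.05 there were 2, 6 and 5 in the same comparisons, where 14.5%, 15.5% and 19.4% of all probes were. The smallest p was that of Fgf1, a fibroblast growth factor, with 0.15, 0.26 and 0.09 in HDC-A and -0.10, -0.12 and -0.22 in HDC-M tumours, a difference of 0.31 (adjusted p = 0.0687, limma) with no overlap. Its second probe differed by 0.09 (adjusted p = 0.657, limma). Of 11 pericyte and smooth muscle genes, all measured, 0 passed between tumour groups, where 0.681%, 1.44% and 5.26% of all probes did. The median differences were 0.03 in HDC-S against HDC-M, 0.30 in HDC-A against HDC-M and -0.24 in HDC-S against HDC-A tumours. Cspg4, the NG2 proteoglycan of pericytes, had the smallest p, with 0.71, 0.54 and 0.40 in HDC-A and 0.28, 0.30 and 0.17 in HDC-M tumours, a difference of 0.30 (adjusted p = 0.156, limma).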

How the data were processed

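RNA of 9 tumour pools, 3 per group, was measured on 2-colour Agilent arrays. Per the file headers, the deposited scanner files were made with Feature Extraction 8.5.1.1 and hold the mean and background intensity of each spot in both dyes. The authors' deposited value table holds log10 ratios of Cy5 over Cy3, and these equalled the scanner software's LogRatio at all 43790 spots of each array within a tolerance of 1e-06. The deposited marks for spots above background, outliers and saturation are flags of 0 or 1 set by the scanner software, per the file headers.

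From the intensities, log2 ratios were computed with limma 3.58.1 in R 4.3.3: normexp background correction (offset 50), loess within each array, control and outlier spots left out, and spots of a probe averaged. Of 41174 probes, 26871 with a Cy5 signal well above background on at least 3 of 9 arrays were kept. Probes were named through the RefSeq table by accession (22064), symbol (765) or synonym (758). All 9 arrays entered 1 fit with empirical Bayes, without a replicate block, and p-values were adjusted by Benjamini-Hochberg over all probes kept, with a threshold of 0.05. Because nearly all negative controls carried the Cy3 mark for signal above background, the 95th percentile of the 314 negative controls of each array was used as the Cy3 floor, a choice made after the marks were seen. The number of arrays limits the precision. Deviations of same-numbered HDC-S and HDC-A pools correlated at 0.11, 0.548 and 0.134, and those of differently numbered pools at -0.319 to 0.217. Only replicate 2 thus stood out, and the blocked result is given for HDC-S against HDC-A as an alternative. In the other pairs of groups same-numbered pools correlated at -0.187 to 0.152, and replicate 3 is also the second scan day.

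The genes and the lists beside them were chosen with earlier results of these data known. All 36 genes are named, and of each other list the genes that pass between tumour groups or, where none passes, the gene with the smallest p. Alternatives covered background correction, normalization, probe filter and choice, array weights, scan day, a replicate block and leaving out each array.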

Additional observations from a re-analysis of the deposited data

Results flagged for a closer look

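By the test, 3 genes among the endothelial genes and the lists beside them differed between tumour groups. In each case HDC-S lay below HDC-A tumours, a comparison in which 5.26% of all probes passed and 2.42% passed as lower. They are 1 of 35 endothelial genes, 1 of 26 further endothelial genes and 1 of 5 melanocyte genes, with 0 in the other lists. Mcam, the CD146 adhesion molecule, differed by -0.72 on the log2 scale (adjusted p = 0.0151, limma), and the 3 HDC-S pools lay below the 3 HDC-A pools. Elk3, an Ets family factor, differed by -0.51 (adjusted p = 0.0294, limma), also without overlap. Tyr, the tyrosinase of melanin synthesis and a gene of the melanoma cells, had -0.17, -0.18 and -0.30 in HDC-S and 0.31, 0.23 and 0.25 in HDC-A tumours, a difference of -0.48 (adjusted p = 0.0121, limma). The Tyr difference passed in 20 of 23 alternative fits. By limma it did not pass under median centring (-0.57, adjusted p = 0.791), on the first scan day alone (-0.45, 0.146) or without HDC-S replicate 3 (-0.44, 0.0522).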

How the results depend on the processing

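The count of endothelial genes that pass against the culture stayed within 1.5 times its value in every alternative run. Between HDC-A and HDC-M tumours the count was 0 in each. Between HDC-S and HDC-M tumours it was 1 with array weights and 0 to 1 when 1 array was left out. Between HDC-S and HDC-A tumours it was 0 with the scanner's own ratios, the deposited value table, median centring, scale normalization and the first scan day alone, and 0 to 1 when 1 array was left out. With the replicate block the count was 2, Aplnr being added (-0.35, adjusted p = 0.0496, limma), and Mcam, Elk3 and Tyr passed there too. In the comparisons with HDC-M tumours the block left both counts at 0. The second scan day holds 1 array per group and gave no test.

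Signs turned at genes that did not pass in the comparison concerned, except Nos3. Under median centring, which shifts the median of all probes against the culture to 0.15 in HDC-S, 0.153 in HDC-A and 0.274 in HDC-M tumours, Tek was -0.11 in HDC-S, -0.03 in HDC-A and -0.15 in HDC-M, Tie1 -0.02 in HDC-S and -0.03 in HDC-A, and Nos3 0.05 in HDC-M tumours. Tie1 in HDC-A tumours was -0.02 with plain background subtraction and between -0.01 and 0.03 when 1 array was left out, and Tek in HDC-S tumours was between -0.02 and 0.09 when 1 array was left out, the low values being those without HDC-A replicate 2 and HDC-S replicate 1. In HDC-A against HDC-M tumours, Esm1 was -0.01 with the scanner's own ratios and in the deposited value table, and -0.43 after scale normalization. Flt1 was -0.93 in that table and -0.29 after scale normalization, which also gave -0.05 for Vwf, -0.09 for Mcam and -0.04 for Pf4, and median centring gave -0.24 for Mcam. The causes were not tested.

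Signal over background limits Pecam1, Tek, Tie1 and Sox17, whose tumour signals were near the negative controls, and 10 genes whose culture signal was within them. Sox7 and S1pr1 were little brighter in tumours, at 86 to 121 and 92 to 111 scanner units. With 3 pools per group, the 95% intervals of differences had a median half-width of 0.41 log2 units.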

Other observations

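Genes of other cell types in the tumours were set beside the endothelial genes. By limma 0 passed between tumour groups in the platelet, erythroid, macrophage, T and NK cell, fibroblast, keratinocyte, skeletal muscle and adipocyte lists. These lists hold only 4 to 10 measured genes. Of all probes 0.681% passed in HDC-S against HDC-M, 1.44% in HDC-A against HDC-M and 5.26% in HDC-S against HDC-A tumours. The smallest p of each list belonged to the following genes. Pf4, a platelet chemokine, averaged 3.32 in HDC-A and 2.55 in HDC-M tumours (difference 0.77, adjusted p = 0.153). Mrc1, the mannose receptor of macrophages, averaged 1.89 in HDC-S and 1.27 in HDC-M tumours (0.61, adjusted p = 0.419). Krt10, a keratin of the upper epidermis, averaged 1.29 in HDC-S and 3.64 in HDC-M tumours (-2.35, adjusted p = 0.113; other probe -1.99), with every HDC-S pool below every HDC-M pool.

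Myot, a sarcomere protein of skeletal muscle, averaged 1.60 in HDC-A and 0.54 in HDC-M tumours (1.06, adjusted p = 0.0859). Col1a1, the main collagen of fibroblasts, averaged 3.86 in HDC-S and 4.67 in HDC-A tumours, where 1 array was not usable (-0.81, adjusted p = 0.421), and its other probes differed by -0.34 and -0.04. Lpl, the lipase of fat tissue, averaged 1.60 in HDC-A and 1.01 in HDC-M tumours (0.59, adjusted p = 0.243), and its other probe differed by 0.19. Cd8a of cytotoxic T cells differed by -0.15 (adjusted p = 0.273) and Slc4a1 of red cells by 0.13 (adjusted p = 0.248) in HDC-S against HDC-A tumours.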
